A study of Mus musculus with 22 samples.

Results

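The 10 genes described here are general markers of epithelial cells: Epcam, Cdh1, Krt7, Krt8, Krt18, Krt19, Cldn3, Cldn4, Cldn7 and Elf3. They were chosen by gene symbol from a table of 28099 mouse genes, as markers shared by the epithelia of many organs. All 10 were in the table and all 10 were among the 16917 genes with enough signal to be tested. They were followed in 22 RNA-seq libraries of arterial smooth muscle cells, the contractile cells of the artery wall, isolated by fluorescence-activated cell sorting from 7 tissues of mice whose age the labels do not give. Intestine had 4 libraries, and stomach, bladder, kidney, lung, heart and aorta had 3 each.

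The aorta, lung, kidney, bladder, stomach and intestine mice carried Cspg4-Dre, Acta2-CreERT and R26-GFP, and the heart mice carried Cspg4-DreERT, Acta2-CreERT and R26-GFP, so the heart and its Dre allele cannot be told apart. All 7 groups received tamoxifen on 3 days, 0.75 mg for each 10 g of body weight. In these mice the Dre recombinase is driven by Cspg4, a gene of pericytes and other mural cells, the inducible Cre by Acta2, the smooth muscle actin gene, and the fluorescent reporter sits at the R26 locus. Whether libraries of 1 tissue stem from different mice is not stated, so the p-values reflect only library-to-library spread, which may be technical. At most 10 ng of RNA entered each SMART-Seq v4 amplification.

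Epithelial cells are held together by adherens junctions, whose cadherin is E-cadherin, and sealed by tight junctions built from claudins. Their cytoskeleton contains keratin filaments, in which a type II keratin such as Krt7 or Krt8 pairs with a type I keratin such as Krt18 or Krt19. Smooth muscle cells use other cadherins and build their filaments from desmin and vimentin, although Krt8 and Krt18 have also been reported in some vascular smooth muscle. Transcriptional repressors of the Snail and Zeb families bind E-box motifs in the promoters of epithelial genes and keep several of them silent in mesenchymal cells.

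The deposited values are whole numbers already scaled between libraries, called signal here. Because the scaling left regular gaps between low values, the signal that 1 read is worth could be recovered for each library, and read numbers were rebuilt from it. The 3 aorta libraries held 629456, 1540366 and 1927765 rebuilt reads and the third heart library 817157, while the other 18 libraries held between 4389363 and 12708422. A count of 3 reads, used as a floor for detection that covers counting error only, corresponded to a signal of 28.3, 12.2 and 9.9 in the aorta libraries and 24.3 in the third heart library, and to at most 4.0 elsewhere. Acta2 was present in all libraries, at 1343 to 25011, and so was Myh11, the smooth muscle myosin heavy chain, at 1379 to 29802. Some libraries stood apart from the others of their tissue. The third bladder library had the lowest Myh11 of all libraries and a Cspg4 signal of 15, against 800 and 179 in the other bladder libraries, the second kidney library had a Cspg4 signal of 65, against 2321 and 2542 in the other kidney libraries, and the second aorta library held 794 of the lung surfactant gene Sftpc. In bulk libraries such as these, fewer cells of a type and less RNA per cell cannot be told apart.

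In mm39 coordinates the members lie on 6 chromosomes, and Krt7, Krt8 and Krt18 lie near each other on chromosome 15. Epcam, the epithelial cell adhesion molecule, is at chr17:87943407-87958557 on the plus strand, and Cdh1, which encodes E-cadherin, is at chr8:107329983-107396878 on the plus strand. Krt7 is at chr15:101308924-101328194 (plus), Krt8 at chr15:101905133-101912917 (minus) and its partner Krt18 at chr15:101936615-101940462 (plus). Krt19 is at chr11:100031636-100039491 (minus). The claudin genes Cldn4 (chr5:134973973-134975788, minus) and Cldn3 (chr5:135015068-135016326, plus) are close neighbours, Cldn7 is at chr11:69855605-69858711 (plus), and Elf3, an epithelial ETS-family transcription factor, is at chr1:135181313-135186306 (minus). Long non-coding genes on the opposite strand overlap Krt7, Krt8, Cldn3 and Elf3; none of them exceeded a signal of 11 in any library. Krt8 and Krt18 have processed pseudogenes elsewhere in the mouse genome, and how reads matching more than 1 place were counted is not given in the sources used here, so their levels carry that uncertainty.

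The stretches before the transcription starts are shown for 4 members, Epcam for the adhesion genes, Cldn4 for the claudins, and the partner keratins Krt8 and Krt18, because all 4 hold the E-box that Snail and Zeb repressors are known to bind. Each is 250 bases long, reads 5′ to 3′ toward the start, and comes from RefSeq on GRCm38.p6, a build other than that of the files, at chr17:87635729-87635978 (plus), chr5:134946935-134947184 (minus), chr15:102004343-102004592 (minus) and chr15:102027966-102028215 (plus). Capitals mark CAGGTG on either strand, which reads CACCTG on the other.
Epcam: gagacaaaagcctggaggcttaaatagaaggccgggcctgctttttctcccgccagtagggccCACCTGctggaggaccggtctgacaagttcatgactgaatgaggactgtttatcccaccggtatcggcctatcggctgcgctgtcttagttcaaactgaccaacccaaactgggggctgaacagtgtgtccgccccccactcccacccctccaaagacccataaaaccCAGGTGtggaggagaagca
Cldn4: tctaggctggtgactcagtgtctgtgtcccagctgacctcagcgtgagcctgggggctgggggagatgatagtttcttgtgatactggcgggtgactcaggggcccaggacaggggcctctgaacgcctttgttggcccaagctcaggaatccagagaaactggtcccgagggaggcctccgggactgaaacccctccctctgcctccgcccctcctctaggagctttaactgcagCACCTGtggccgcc
Krt8: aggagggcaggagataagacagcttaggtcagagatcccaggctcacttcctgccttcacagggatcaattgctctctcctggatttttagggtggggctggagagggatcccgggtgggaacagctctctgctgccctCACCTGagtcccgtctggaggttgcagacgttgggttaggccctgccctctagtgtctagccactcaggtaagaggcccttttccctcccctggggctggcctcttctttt
Krt18: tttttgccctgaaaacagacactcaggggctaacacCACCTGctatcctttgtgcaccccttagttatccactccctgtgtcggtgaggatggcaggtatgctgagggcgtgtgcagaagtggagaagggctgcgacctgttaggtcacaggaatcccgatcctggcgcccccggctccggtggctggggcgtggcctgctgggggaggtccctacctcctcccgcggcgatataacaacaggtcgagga
RefSeq promoter windows from 250 bases before to 50 after the start were found for 8 of the 10 members; Cdh1 and Krt19 had none. The motif was present in the windows of 8 of these 8 genes, before the start in 7 of them and in Cldn3 after it. It occurred in 20.2% of all 32851 promoter windows and in 17.2% before the start. The members are counted per gene, over 9 windows, and the background per window. Cldn7 had an additional window, whose stretch before the start held no motif. Counted from the start, the motif began at -19 and -187 in Epcam, -111 in Krt8, -214 in Krt18, -44 in Krt7 and -140 in Elf3. In the claudins it began at -14 and 12 in Cldn4, -57 and -97 in Cldn7 and 32 in Cldn3. The other motif searched, AACCGGTT, which the epithelial Grainyhead-like factors are known to bind, was in 0 of the 8 genes' windows and in 0.1% of all windows. These matches describe the letters in the windows and not the binding of any factor.

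Summed over the 10 genes, the epithelial signal differed widely between tissues and was highest in the gut. It was 11775, 11483 and 9181 in the stomach libraries and 7422, 6352, 8205 and 9310 in the intestine libraries, against 147, 70 and 146 in the heart libraries. The kidney libraries had 627, 2433 and 2836, the lung libraries 316, 993 and 673, and the aorta libraries 216, 644 and 290. The bladder libraries had 659, 752 and 5639, an 8.56-fold range within 1 tissue. The stomach and intestine libraries lay above those of every other tissue, and the heart libraries below them. Aorta overlapped lung and kidney, and lung, kidney and bladder overlapped each other. As a share of all signal the 10 genes made up 0.172% to 0.208% of a stomach library, 0.116% to 0.176% of an intestine library and 0.0012% to 0.00259% of a heart library. The tissue means were 10813.0 ± 1420.9 in stomach, 7822.2 ± 1249.2 in intestine, 2350.0 ± 2848.7 in bladder, 1965.3 ± 1176.4 in kidney, 660.7 ± 338.7 in lung, 383.3 ± 228.8 in aorta and 121.0 ± 44.2 in heart (SD, n = 3, and n = 4 for intestine). Without the third bladder library the bladder mean was 705.5.

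**Figure D1:**
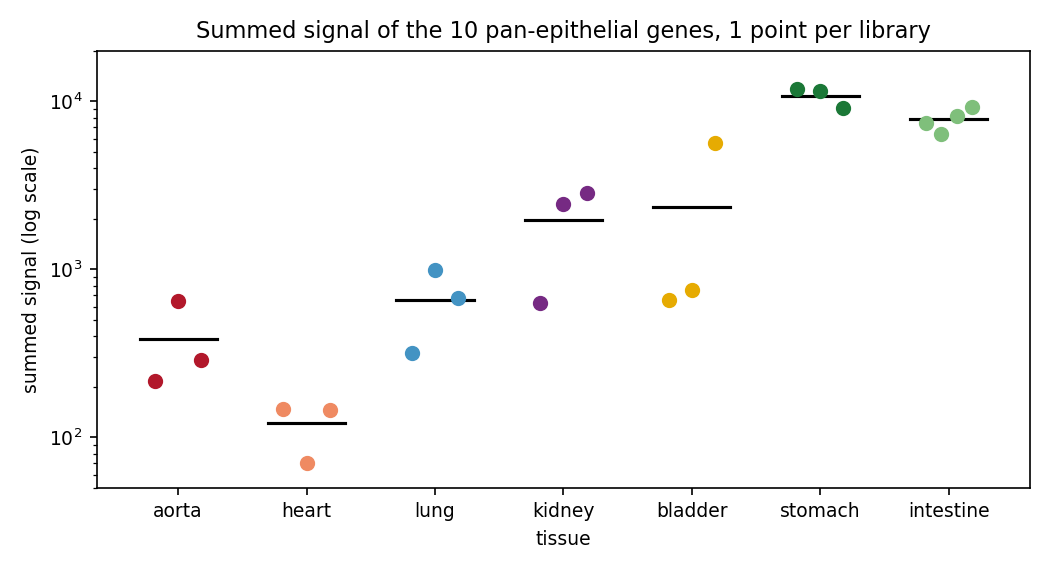
Summed signal of the 10 pan-epithelial genes (log axis) by tissue, 1 point per library, with the tissue mean as a bar. The stomach and intestine libraries lie between 6352 and 11775, and 1 bladder library at 5639 stands above the other bladder libraries at 659 and 752.

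**Figure D2:**
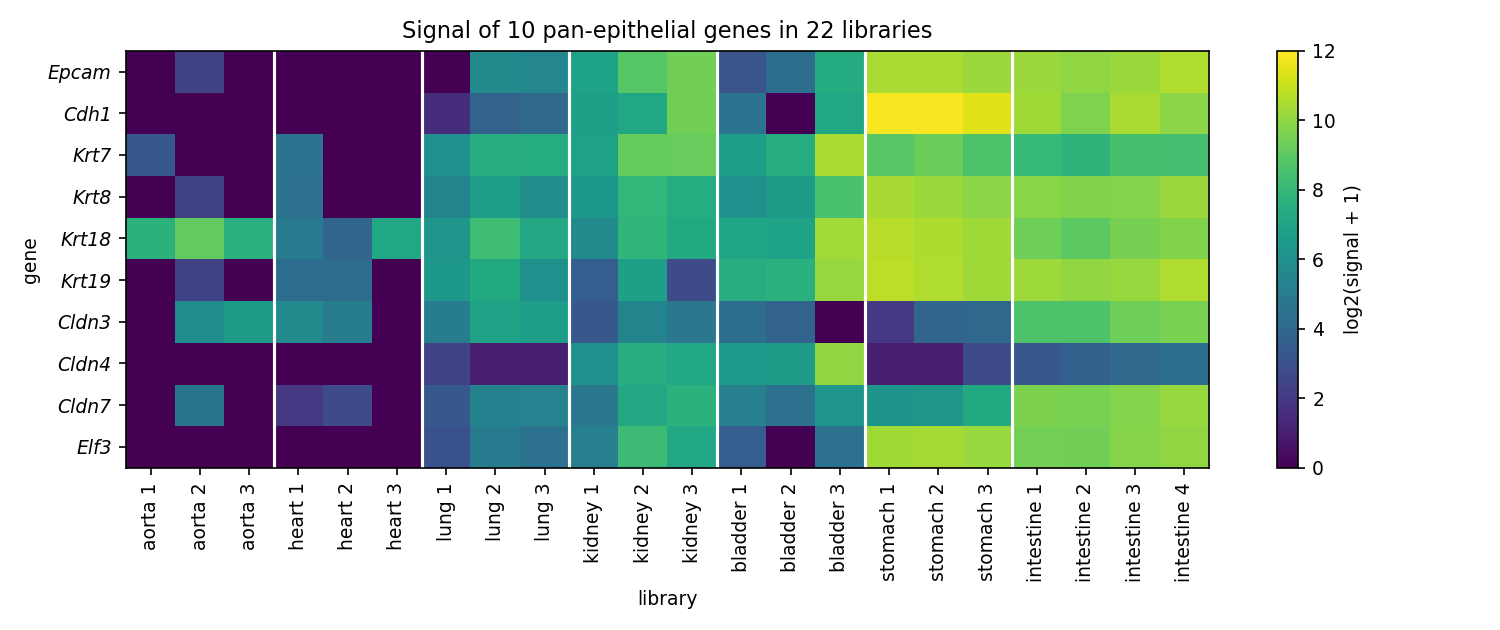
Signal of each gene (rows) in each of the 22 libraries (columns, grouped by tissue), coloured by log2(signal + 1). Stomach and intestine are bright for most genes, Cldn4 is bright in bladder and kidney only, and Krt18 has 198 to 551 in the aorta libraries, where most other rows are dark.

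Across the 7 tissues, 10 of the 10 genes differed in limma's moderated F test on log2(signal + 1), at an adjusted p of 0.05 over all genes tested; of all genes tested, 59.6% did. The adjusted p ran between 1.53e-08 for Elf3 and 0.0104 for Cldn3. In the same fit, each tissue was compared with the average of the other 6, all tissues weighted equally. In intestine 9 of 10 members were higher and 0 lower, beside 15.5% of all genes higher and 9.97% lower. In stomach 7 were higher and 0 lower, beside 13.4% of all genes higher and 6.93% lower. In kidney 4 were higher (Epcam, Cdh1, Cldn4 and Elf3) and 0 lower, beside 6.35% of all genes higher and 4.11% lower. In bladder 2 were higher (Krt19 and Cldn4) and 1 lower (Elf3), beside 8.31% of all genes higher and 7.4% lower. In heart 9 were lower and 0 higher, beside 12.4% of all genes lower and 6.03% higher. In aorta 8 were lower and 0 higher, beside 42.8% of all genes lower and 9.15% higher. In lung 0 members passed in limma in either direction, beside 4.43% of all genes higher and 3.48% lower.

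The median log2 fold change of the members was 4.83 in intestine (0.34 over all genes), 3.98 in stomach (0.3 over all genes), 2.02 in kidney (0.22) and 0.2 in bladder (0.06). It was -0.68 in lung (0.15 over all genes), -4.75 in heart (-0.19) and -5.57 in aorta (-1.04). The whole aorta profile was shifted down, and its member values are to be read against that shift. Genes listed at 0 in all libraries of a tissue were then set to the 3-read floor in that tissue. Other values under the floor were left as they were. The members' medians became 4.55 in intestine, 3.98 in stomach, 1.5 in kidney, 0.2 in bladder and -0.71 in lung. They were -3.83 in heart (-0.13 over all genes) and -3.39 in aorta (-0.51 over all genes). Fitted fold changes of genes listed at 0 in all libraries of heart or aorta are no bound and are not printed.

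**Figure D3:**
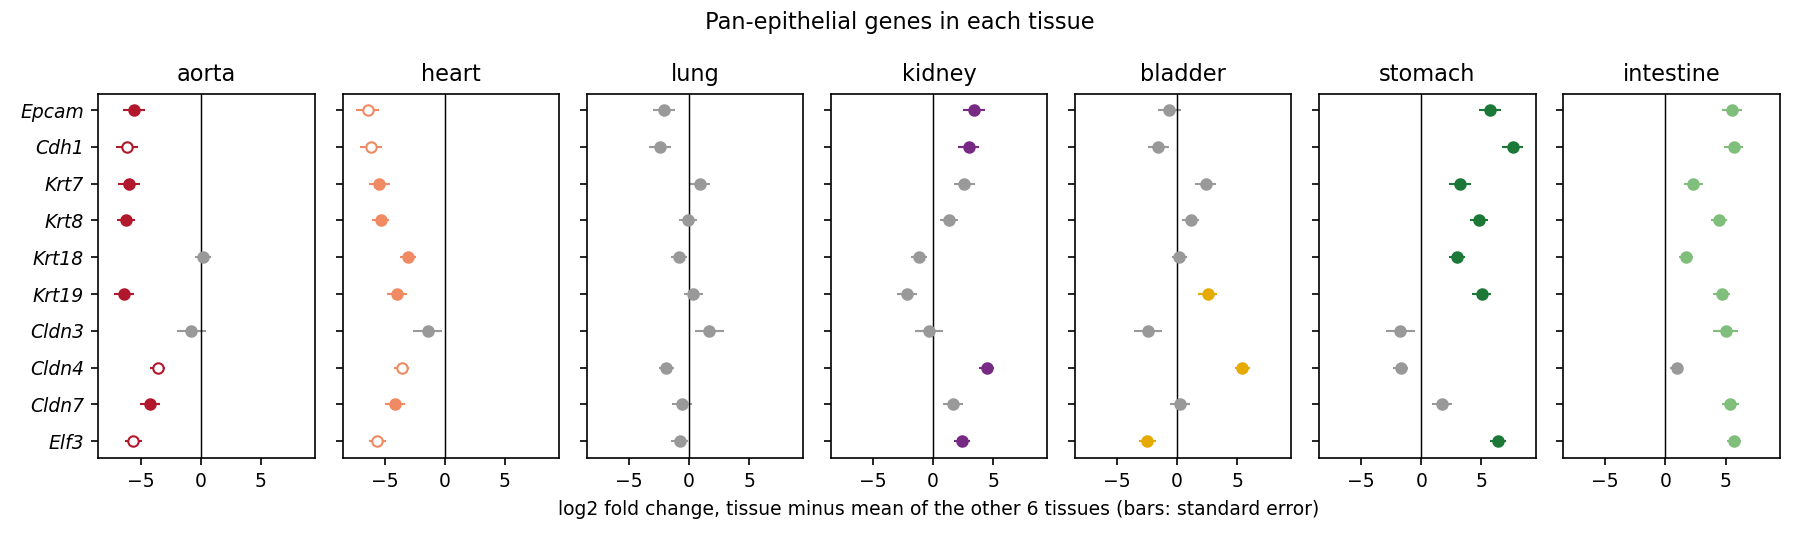
Log2 fold change of each gene in each tissue against the mean of the other 6 tissues, with standard errors. Coloured points passed limma at an adjusted p of 0.05, grey points did not, and open points mark genes at 0 in all libraries of that tissue; intestine has 9 coloured points right of 0 and heart 9 left of it.

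The counts in lung, kidney and bladder depended on single libraries and on the shallow ones. Those in stomach and intestine also moved with single libraries left out, and those in aorta and heart moved under edgeR. Shares of all genes called under the alternatives are not given here. The counts below therefore show only how the members' calls moved. Without the aorta libraries and the third heart library, an alternative chosen after the data had been seen, kidney had 1 member higher (Cldn4) and 1 lower (Krt19), bladder had 1 higher (Cldn4) and 3 lower, and lung had 4 lower (Epcam, Cdh1, Cldn4 and Cldn7), while intestine had 8 higher, stomach 7 higher and 2 lower, and heart 9 lower. For lung, 3 members were lower and 0 higher at an unadjusted p of 0.05 in limma, beside 23.1% of all genes in either direction; edgeR on rebuilt reads passed 0 members there and DESeq2 passed 2. In lung, 1 member was lower without the first bladder library, 2 without the second and 1 without the third. In kidney the count was 2 without the second library (Cldn4 higher and Krt19 lower) and 1 without the third (Cldn4 higher). It was 6, all higher, in both edgeR and DESeq2. In bladder the count of members passing in either direction was 1 without the second bladder library and 5 without the first aorta library.

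The 2 adhesion genes were highest in the gut and next highest in kidney. Epcam, which mediates contact between epithelial cells, had a signal of 1417, 1413 and 1178 in stomach and 1190, 1016, 1188 and 1538 in intestine, and 125, 460 and 702 in kidney. It had 8, 19 and 166 in bladder, 0, 50 and 46 in lung, 0, 4 and 0 in aorta, and was listed at 0 in the 3 heart libraries. The gut libraries did not overlap those of any other tissue, and kidney had the next highest mean, although its lowest library, at 125, lay below the highest bladder library, at 166. Epcam was higher in stomach by 5.69 ± 0.93 on the log2 scale (SE; limma adjusted p = 0.000167), in intestine by 5.54 ± 0.83 (limma adjusted p = 5.49e-05) and in kidney by 3.41 ± 0.93 (limma adjusted p = 0.0224). The kidney call was lost without the second kidney library (limma adjusted p = 0.0885) and without the third (limma adjusted p = 0.192). Its bladder and lung values did not pass.

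Cdh1, the cadherin of adherens junctions, had a signal of 3758, 3826 and 2856 in stomach. Intestine had 1260, 832, 1433 and 971, and kidney 109, 139 and 680. Stomach stood above intestine in every library, and the lowest intestine library stood above the highest kidney library. Bladder had 23, 0 and 141, lung 2, 13 and 17, and the 3 aorta and 3 heart libraries were listed at 0. Cdh1 was higher in stomach by 7.59 ± 0.90 (log2; limma adjusted p = 4.25e-06) and in intestine by 5.67 ± 0.80 (limma adjusted p = 3.03e-05). The kidney difference of 2.95 ± 0.90 passed narrowly (limma adjusted p = 0.0427) and was lost when any of 12 of the 22 libraries was left out, among them each kidney library (limma adjusted p = 0.0902 without the first, 0.0715 without the second and 0.336 without the third), with the other 9 such values between 0.052 and 0.061. Without the second bladder library Cdh1 was lower in lung (limma adjusted p = 0.00808), and without the third it was lower in bladder (limma adjusted p = 0.0257).

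The 3 claudins, which seal tight junctions and set what may pass between cells, differed from the other members and from each other in where they were high. Cldn7 was highest in intestine, with a signal of 791, 770, 885 and 1135 there, 73, 81 and 155 in stomach, and 26, 150 and 210 in kidney. Bladder had 37, 21 and 78, lung 9, 38 and 39, heart 3, 6 and 0, and aorta 0, 24 and 0. No library of another tissue exceeded 210. Cldn7 was higher in intestine by 5.40 ± 0.74 (log2, limma adjusted p = 2.13e-05). In the joint fit it was the 1 member whose highest tissue also differed from its second. Intestine exceeded kidney by 3.22 ± 1.03 (limma adjusted p = 0.0456, with 12.3% of all genes differing in that pair). Fitted as pairs alone, the highest and second tissues also differed for Cdh1, Krt18, Cldn3 and Elf3 (limma adjusted p = 0.00119, 0.00446, 0.000188 and 0.0259). Such calls were common: fitted alone, 32.5% of all genes differed between stomach and intestine, the pair for Cdh1, Krt18 and Elf3. Between intestine and lung, the pair for Cldn3, 57.6% did. The stomach difference of 1.70 ± 0.84 did not pass (limma adjusted p = 0.164), though it did without the second aorta library (limma adjusted p = 0.0346).

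Cldn3 had the highest adjusted p of the 10 in the F test across tissues. Intestine had 406, 406, 660 and 764, and stomach, the other gut tissue, had 3, 14 and 15. Lung had 33, 118 and 103, aorta 0, 57 and 92, heart 51, 32 and 0, kidney 9, 42 and 26, and bladder 19, 13 and 0. All tissues but intestine overlapped, apart from lung with stomach and bladder. Cldn3 was higher in intestine by 5.00 ± 1.06 (log2, limma adjusted p = 0.0018), and intestine exceeded stomach by 5.77 ± 1.47 (limma adjusted p = 0.0197). In the joint fit Cldn3 was the 1 member for which the 2 gut tissues differed, beside 6.12% of all genes in that pair. In no other tissue did Cldn3 pass, though without the first aorta library it was lower in bladder (limma adjusted p = 0.0499), as it was in DESeq2 with all libraries (adjusted p = 0.00597). Cldn3 was also called lower in stomach by edgeR (adjusted p = 0.0342), by DESeq2 (adjusted p = 0.00507) and by limma with array weights (adjusted p = 0.000773).

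Cldn4 had the opposite layout, with bladder and kidney high and the gut low. Its signal was 85, 98 and 1044 in bladder and 63, 178 and 144 in kidney, against 9, 12, 16 and 20 in intestine and 1, 1 and 6 in stomach. Lung had 4, 1 and 1, and the aorta and heart libraries were all listed at 0. Every bladder and kidney library lay above every library of the other 5 tissues, and bladder and kidney overlapped. Cldn4 was higher in bladder by 5.39 ± 0.62 (log2; limma adjusted p = 9.48e-06) and in kidney by 4.45 ± 0.62 (limma adjusted p = 5.24e-05), and without the third bladder library the bladder difference was 4.23 (limma adjusted p = 0.000119). Its levels in stomach and lung are a few reads a library, 17 rebuilt reads over the 3 stomach libraries and 7 over the 3 lung libraries. Cldn4 passed as lower in lung when any 1 of the 3 bladder libraries was left out (limma adjusted p = 0.0437, 0.0485 and 0.0264), and in stomach without any 1 of those, the first kidney or the third stomach library (limma adjusted p between 0.025 and 0.0488).

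Both type II keratins were higher in stomach and in intestine than in the average of the other tissues. Krt8, the main type II keratin of simple epithelia, had 1369, 1168 and 961 in stomach and 939, 845, 876 and 1157 in intestine. Bladder had 63, 93 and 376, kidney 82, 244 and 172, lung 41, 100 and 60, heart 22, 0 and 0, and aorta 0, 4 and 0. The gut libraries did not overlap any others, and bladder, kidney and lung overlapped. Krt8 was higher in stomach by 4.77 ± 0.74 (log2; limma adjusted p = 9.59e-05) and in intestine by 4.43 ± 0.66 (limma adjusted p = 5.19e-05), and in heart its difference was -5.34 ± 0.74 (limma adjusted p = 8.25e-05).

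Krt7, a type II keratin of ducts, airways and bladder lining, was present in all libraries of 5 tissues. It had 101, 179 and 1438 in bladder, 471, 634 and 394 in stomach, 116, 575 and 599 in kidney, 263, 219, 368 and 346 in intestine and 63, 175 and 171 in lung. Heart had 23, 0 and 0, and aorta 9, 0 and 0. In the joint fit no neighbours differed among the first 5 tissues in the order of mean signal (bladder, stomach, kidney, intestine and lung), and lung exceeded heart by 5.43 ± 1.17 on the log2 scale (limma adjusted p = 0.00622; 7.16% of all genes differed in that pair). Fitted as pairs alone, lung against heart did not pass (limma adjusted p = 0.107) and intestine over lung did (limma adjusted p = 0.0107). In these fits 4.39% of all genes differed between lung and heart and 57.6% between intestine and lung. Krt7 was higher in stomach by 3.20 ± 0.89 (limma adjusted p = 0.0146) and in intestine by 2.33 ± 0.79 (limma adjusted p = 0.0362). The stomach call was lost without any 1 stomach library (limma adjusted p = 0.067, 0.0924 and 0.0549), and the intestine call without any 1 intestine library (limma adjusted p between 0.0735 and 0.109) or the first lung library (limma adjusted p = 0.0503). Krt7 passed as higher in kidney without the first aorta, first heart or the third bladder library (limma adjusted p = 0.029, 0.017 and 0.0376), and as higher in bladder without the first aorta or first heart library (limma adjusted p = 0.0328 and 0.0202). The count models on rebuilt reads also called it higher in kidney (adjusted p = 0.0115 in edgeR and 0.00903 in DESeq2) and in bladder (0.00149 in edgeR and 0.00114 in DESeq2). Without the aorta libraries the stomach and intestine calls were lost (limma adjusted p = 0.0517 and 0.176).

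Krt19, a type I keratin of ducts and surface epithelia, had 1759, 1524 and 1242 in stomach and 1194, 1063, 1131 and 1502 in intestine. Bladder had 179, 204 and 1095, lung 82, 157 and 64, and kidney 11, 107 and 6. Heart had 18, 18 and 0, and aorta 0, 4 and 0. Kidney, whose mean came next after the gut for Epcam and Cdh1, stood below bladder here, by 4.04 ± 1.08 on the log2 scale (bladder over kidney, limma adjusted p = 0.0151; 14.0% of all genes differed in that pair). That call was lost when the pair was fitted alone (limma adjusted p = 0.11). Krt19 was higher in stomach by 5.01 ± 0.82 (limma adjusted p = 0.000174), in intestine by 4.66 ± 0.73 (limma adjusted p = 9.57e-05) and in bladder by 2.53 ± 0.82 (limma adjusted p = 0.0428). The bladder call was lost when any of 14 of the 22 libraries was left out; without the third bladder library the difference was 1.69 (limma adjusted p = 0.327), and the other 13 adjusted p-values lay between 0.0515 and 0.0776. Krt19 was lower in kidney without the third heart library (limma adjusted p = 0.0212) or the second kidney library (limma adjusted p = 0.0225).

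Krt18, the usual partner of Krt8, was the only member above 0 in all 22 libraries. It had 1688, 1486 and 1232 in stomach, 648, 501, 744 and 840 in intestine, and 133, 125 and 1280 in bladder. Aorta had 207, 551 and 198, lung 75, 311 and 150, kidney 50, 240 and 155, and heart 30, 14 and 146. Aorta thus overlapped bladder, lung, kidney and intestine in this gene, whereas it was at or near 0 in most others. Krt18 was higher in stomach by 2.97 ± 0.65 (log2; limma adjusted p = 0.00263), and in aorta the difference was 0.22 ± 0.65 (limma adjusted p = 0.8). In heart it was lower, at -3.04 ± 0.65 (limma adjusted p = 0.00339). The intestine difference of 1.67 ± 0.58 passed narrowly (limma adjusted p = 0.0411) and was lost when any of 12 of the 22 libraries was left out, with adjusted p-values between 0.0511 and 0.116.

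The partners Krt8 and Krt18 were not in the same ratio in every tissue. Per kilobase of transcript, the ratio of Krt18 to Krt8 was 1.68, 1.73 and 1.75 in stomach, 0.94, 0.81, 1.16 and 0.99 in intestine and 0.83, 1.34 and 1.23 in kidney. It was 2.5, 4.23 and 3.41 in lung and 2.88, 1.83 and 4.64 in bladder. Lung and bladder lay above the gut and kidney in all libraries, and stomach above intestine. In aorta the 3 libraries held 22, 136 and 60 rebuilt reads of Krt18 and 0, 1 and 0 of Krt8, so Krt18 was present there nearly without its partner; the smooth muscle and mural list summed to 51487 to 78275 in those libraries, and its part in the result was not tested. Heart had 34, 18 and 18 reads of Krt18 and 25, 0 and 0 of Krt8. The aorta libraries and the third heart library were shallow in reads, and a count of 0 in a library allows up to 3 reads.

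**Figure D4:**
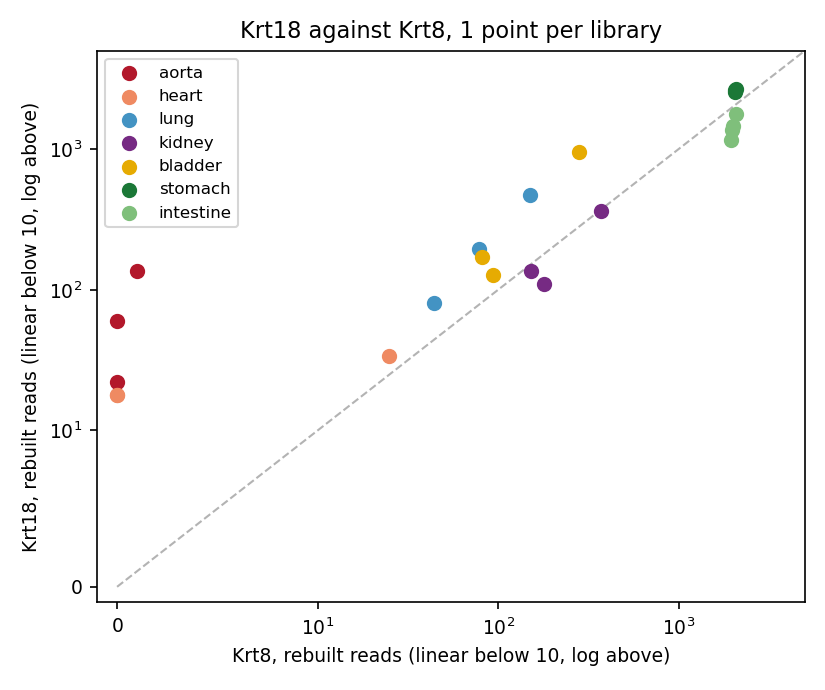
Rebuilt reads of Krt18 against those of Krt8, 1 point per library, coloured by tissue, on axes that are linear below 10 and logarithmic above, with equal reads as a dashed line. The aorta points lie at the left edge with 22 to 136 Krt18 reads and at most 1 Krt8 read, the second and the third heart libraries share a point at 0 and 18, and the gut libraries all lie near 2000 Krt8 reads.

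Elf3, a transcription factor of epithelial differentiation, had the lowest adjusted p of the 10 in the F test across tissues. Its signal was 1236, 1336 and 1142 in stomach, 722, 688, 904 and 1037 in intestine and 36, 298 and 142 in kidney. Lung had 7, 30 and 22 and bladder 11, 0 and 21, and the 6 aorta and heart libraries were listed at 0. Stomach stood above intestine, intestine above kidney, and kidney above lung and bladder, with no overlap between them. Elf3 was higher in stomach by 6.37 ± 0.70 (log2; limma adjusted p = 1.59e-06), in intestine by 5.70 ± 0.62 (limma adjusted p = 1.12e-06) and in kidney by 2.40 ± 0.70 (limma adjusted p = 0.0332). In bladder its log2 fold change was -2.48 ± 0.70 (limma adjusted p = 0.0196), the opposite side to Cldn4 and Krt19 in the same libraries. The kidney call was lost without the second kidney library (limma adjusted p = 0.195) or the third (limma adjusted p = 0.179), and the bladder call without the second bladder library (limma adjusted p = 0.298), under edgeR (adjusted p = 0.98) and under DESeq2 (adjusted p = 0.0883).

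When the 7 tissues were put in order of mean signal for each member, 8 of the 60 neighbouring pairs differed in the joint limma fit. Over all genes tested, 3.85% of such pairs differed in that fit. With each pair fitted alone 12 of the 60 differed, and the share of neighbouring pairs over all genes was not computed for those fits. By tissue pair, between 0.0% (heart and aorta) and 57.6% (intestine and lung) of all genes differed when fitted alone. Stomach was first for Epcam, Cdh1, Krt8, Krt18, Krt19 and Elf3, intestine for Cldn3 and Cldn7, and bladder for Krt7 and Cldn4. Both bladder places rested on the third library: the first and the second, at 101 and 179 for Krt7 and 85 and 98 for Cldn4, lay below the stomach mean of 499.7 for Krt7 and the kidney mean of 128.3 for Cldn4. No member was higher than each of the other 6 tissues by at least 1 on the log2 scale with every pair passing. Between the 2 gut tissues, stomach exceeded intestine in Cdh1 by 1.65 ± 1.11 in the joint fit (log2; limma adjusted p = 0.68), and the groups did not overlap. Fitted with those 7 libraries alone, 7 of the 10 members differed between intestine and stomach, beside 32.5% of all genes.

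Part of the level in the gut rested on rebuilt reads that hardly varied between libraries. In the gut libraries 1 read was worth less than 1, so these reads are inferred without the check on steps. Over the 7 stomach and intestine libraries, Krt8 had 1957 to 2078 rebuilt reads, a 1.06-fold range, although its signal ranged 1.62-fold. Krt19 had 2461 to 2696 reads, a 1.1-fold range with a 1.65-fold range in signal, and Epcam 2130 to 2818, a 1.32-fold range. In each of these, the spread of signal between gut libraries was wider than that of the reads, and followed the signal that 1 read is worth. By contrast, Cdh1 had 1682 to 6769 reads, a 4.02-fold range, and Cldn7 110 to 2099. At 0.5 or more rebuilt reads per transcript base, a signal difference between libraries need not be a difference in level of the same size. In some library 8 of the 10 members reached this, all but Krt7 and Cldn4, and Krt7 was scaled to a long model of 4094 bases. Outside the gut only the third bladder library reached it, at 0.664 for Krt18 and 0.518 for Krt19. This limit touches the differences between stomach and intestine given for Cdh1, Cldn3, Cldn7, Krt18 and Elf3, ratios and shares included, which are differences in deposited signal. It also touches the Krt18 and Krt19 values of the third bladder library, and the size of gut differences from other tissues for those 8 members.

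The mix of the 10 genes, each scaled to its transcript length, also differed between tissues. Krt18 made up 20.3% to 21.9% of the length-scaled member signal in stomach, 10.1% to 11.9% in intestine and 65.3% to 98.5% in aorta. Epcam made up 19.5% to 29.3% in kidney, against 13.0% to 13.8% in stomach and 1.1% to 2.8% in bladder. Cldn7 made up 15.1% to 16.7% in intestine and 1.0% to 2.8% in stomach. In bladder the largest shares were those of Krt19 (24.1% to 32.6%) and Krt18 (21.9% to 30.9%), and Cldn4 made up 12.7% to 19.9%. The third bladder library had larger shares of Krt18 and Cldn4 and a smaller share of Krt19 than both other bladder libraries. In lung, Krt18 made up 28.5% to 37.6%, Krt19 11.1% to 28.9% and Cldn3 14.6% to 22.3%, while Epcam and Cdh1 together made up little, Epcam at most 6.1% and Cdh1 at most 1.0%.

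Other genes of epithelial junctions and of epithelial regulation were read from lists chosen by function. Their counts, and those of the keratins, repressors and cell types that follow, stand beside shares of all genes higher and lower of 13.4% and 6.93% in stomach, 15.5% and 9.97% in intestine, 6.35% and 4.11% in kidney, 8.31% and 7.4% in bladder, 4.43% and 3.48% in lung, 6.03% and 12.4% in heart, and 9.15% and 42.8% in aorta. Of 26 tested junction genes, 19 were higher in stomach and 0 lower, 17 higher and 3 lower in intestine, 4 higher and 2 lower in kidney, 2 and 8 in bladder, 2 and 2 in lung, 1 and 14 in heart, and 1 and 23 in aorta. Their median log2 fold change was 3.84 in stomach (0.3 over all genes) and -3.59 in aorta (-1.04 over all genes). With genes at 0 in all libraries of a tissue set to the 3-read floor there, it was 3.26 in stomach and -1.83 in aorta. Cldn18, a claudin of stomach and lung, had a signal of 2691, 2585 and 1992 in stomach, higher by 9.20 ± 0.54 (limma adjusted p = 3.52e-10), and Tjp3, a tight junction scaffold, had 419, 282, 554 and 533 in intestine, higher by 5.59 ± 0.57 (limma adjusted p = 4.28e-07). Cldn8, a claudin of the distal nephron, had 169, 625 and 825 in kidney, higher by 6.66 ± 0.68 (limma adjusted p = 9.71e-07). Jup (plakoglobin), which also serves desmosomes and adherens junctions outside epithelia, had the highest mean signal of the list and was above 200 in every library. Perp, the second by that measure, was the 1 junction gene higher in heart (log2 fold change 1.56, limma adjusted p = 0.000114) and in aorta (1.41, limma adjusted p = 7.24e-05).

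Of 22 tested regulators and membrane proteases, 18 were higher and 0 lower in stomach, 17 and 2 in intestine, 6 and 0 in kidney, 3 and 6 in bladder, 3 and 2 in lung, 1 and 20 in heart, and 1 and 19 in aorta. Their median log2 fold change was 5.36 in stomach, -3.65 in heart and -3.91 in aorta. With genes at 0 in all libraries of a tissue set to the 3-read floor there, it was 4.7, -3.56 and -1.17. The aorta median over all genes at that floor was -0.51. Esrp2, an epithelial splicing regulator, had 696, 733 and 675 in stomach, higher by 6.77 ± 0.72 (limma adjusted p = 1.11e-06). Spint2, a Kunitz-type protease inhibitor, differed from the members in layout. It was highest in aorta, at 2666, 2793 and 2312, higher by 1.46 (limma adjusted p = 2.05e-05), and lower in bladder, at -1.49 (limma adjusted p = 5.86e-05).

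The other keratins were few and patchy. Of 7 tested, 4 were higher and 0 lower in stomach, 3 and 0 in bladder, 1 and 1 in intestine, 0 and 1 in kidney, 0 and 1 in lung, 0 and 4 in heart, and 0 and 4 in aorta; Krt6a was not analysed here. Krt23 had 723, 833 and 829 in stomach (higher by 6.74 ± 0.96, limma adjusted p = 3.82e-05), Krt20, a keratin of differentiated gut and bladder lining cells, had 315, 437, 431 and 307 in intestine (higher by 6.43 ± 0.61, limma adjusted p = 1.67e-07), and Krt15 had 302, 145 and 636 in bladder (higher by 6.06 ± 1.04, limma adjusted p = 0.00047).

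Of the 6 repressors of the epithelial programme (Snai1, Snai2, Zeb1, Zeb2, Twist1 and Twist2), 2 were higher in intestine, 1 in bladder and 2 lower in aorta, and these were all that passed in limma; the aorta share of 2 in 6 is below the 42.8% of all genes that were lower there. Snai1 had 286, 374, 295 and 474 in intestine (higher by 1.78 ± 0.51, limma adjusted p = 0.0145), 484, 814 and 368 in bladder (higher by 2.46 ± 0.57, limma adjusted p = 0.00564), and 0, 16 and 3 in aorta (log2 fold change -5.71 ± 0.57, limma adjusted p = 5.52e-07). Zeb2 had 1377, 1387, 1232 and 956 in intestine, higher by 1.24 ± 0.31 (limma adjusted p = 0.00606). Zeb1, whose tissue differences did not pass, lay between 66 and 702 over all libraries. Repressor transcripts were thus present in the same gut libraries in which the members were high; bulk libraries do not show whether 1 cell held both.

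Markers of each organ's own epithelium were read beside the members in the same libraries. In stomach, 11 of 11 gastric genes were higher, with a summed signal of 21898, 20348 and 17413, and at most 332 in any aorta, heart, lung, kidney or bladder library. Muc5ac, a mucin of gastric surface cells, had 3687, 4269 and 3251 there. In intestine, 12 of 12 tested intestinal genes were higher, with sums of 5360, 5445, 6093 and 6841, and the gastric list summed to 5878, 725, 2549 and 3545 in the same libraries, with Muc6 at 3941, 206, 1334 and 1570. In kidney, 12 of 12 nephron genes were higher, with sums of 6973, 10524 and 19217, in the same order of libraries as the members' 627, 2433 and 2836. In lung, 10 of 11 lung epithelial genes were higher, with sums of 4824, 6422 and 6202 and Sftpc, the surfactant protein of alveolar type II cells, at 1392, 1090 and 1239, while Epcam was 0, 50 and 46. The part of these epithelial markers in the members' levels was not tested.

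In bladder, 3 of 8 tested urothelial genes were higher, and in stomach 4 of the same 8 were. The list sum is not particular to bladder in these libraries, since it was 2582 to 3241 in stomach and 1383 to 1831 in kidney. The kidney sum was mostly Gata3, at 1531, 1511 and 1346. The stomach sum was mostly Foxa1, at 1672, 1909 and 1593, and Psca, at 1123, 969 and 803. Upk1a, a uroplakin of the bladder surface, had 9, 8 and 9 in stomach and 9, 53 and 23 in kidney, against 79, 79 and 1957 in bladder. In bladder the list summed to 362, 441 and 5336, highest in the library in which the members' sum was highest. Mesothelial genes, of which 5 of 8 were higher in bladder, summed to 1021, 1612 and 2549, and the mesothelium is itself an epithelium with simple keratins. The smooth muscle and mural list was lowest in that library, at 23277, 16301 and 9684, as was Myh11 at 8695, 4531 and 1379. In aorta the second library held a lung list sum of 2345, against 225 and 122 in the first and the third, and in heart the lung list summed to 432 to 688. The heart sums were mostly Hopx, at 487, 401 and 615, with Sftpc at 1, 1 and 0 and Sftpb, Sftpa1 and Sftpd listed at 0. Their part in the members' values was not tested.

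**Figure D5:**
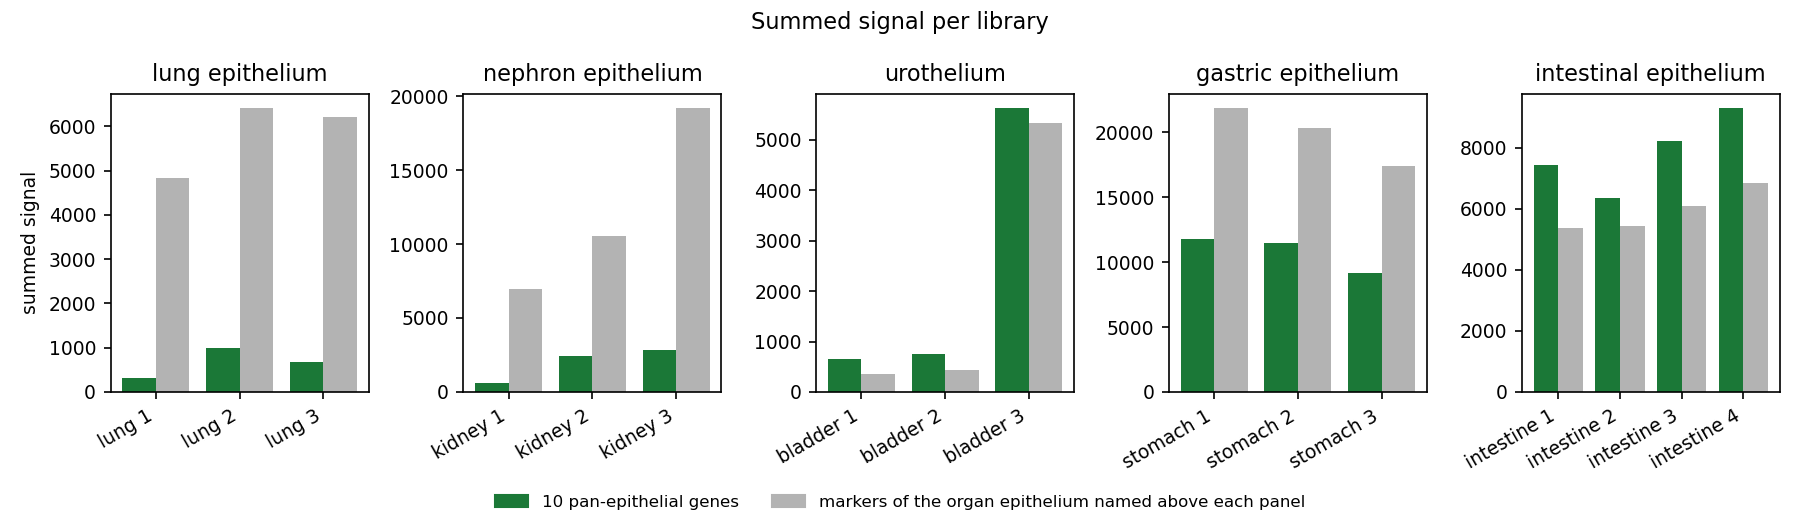
Summed signal of the 10 pan-epithelial genes (green) and of the organ's own epithelial marker list (grey) in each library of lung, kidney, bladder, stomach and intestine, with a separate linear axis per panel. In bladder both sums are high in the third library only, and in kidney both are lowest in the first; heights of the 2 lists are not compared with each other, since their genes differ in length.

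Lists for other cell types were also read. Endothelial genes were higher for 4 of 7 in heart and 2 of 7 in kidney and lower for 5 of 7 in aorta, so the heart libraries, which had the least epithelial signal, summed to 4522 to 5597 in the endothelial list. Of the 5 immune genes 4 were higher in bladder, where they summed to 2438 to 5089, and of the 5 fibroblast genes 3 were higher there. The fibroblast list also had 2 genes higher and 1 lower in aorta, 1 higher in stomach, and 1 higher and 3 lower in intestine. Of the 5 tested cardiomyocyte genes 4 were higher in heart and 3 in lung. In kidney 1 was higher and 3 lower. The higher one was Myh6, at 2028, 310 and 1295 in kidney and 66, 321 and 186 in heart. Of the 4 Schwann cell genes 2 were higher in stomach, at sums of 82 to 129, 1 in heart, 1 in lung and 1 in intestine. In intestine 1 was also lower, as was 1 in bladder and 1 in aorta. Of the 9 smooth muscle and mural genes 6 were higher in aorta and 3 in heart, and 5 were lower in intestine, 3 in bladder and 2 in stomach. Their part in the members' levels was not tested.

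The members resembled each other to different degrees over the 22 libraries, which share depth and scaling. Pearson's r of log2(signal + 1) was 0.98 between Cdh1 and Elf3, 0.95 between Cdh1 and Epcam, and 0.92 between Krt7 and Krt8, against 0.64 between the partners Krt8 and Krt18. Cldn3 reached at most 0.57 with any other member, and Cldn4 at most 0.65. These values describe the libraries and carry no test. Outside the 10 genes, the pattern most like their mean was that of Spint1, a protease inhibitor of epithelial surfaces (r = 0.968), followed by Tmprss2, an epithelial membrane protease (r = 0.966).

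For single members, the most alike genes over the 22 libraries were Tmem45b (r = 0.961) and Rab25 (r = 0.96) for Epcam, Ehf (r = 0.979) and Inava (r = 0.977) for Cdh1, and Tspan1 (r = 0.979) and Kdf1 (r = 0.974) for Elf3. For the keratins they were Garin5a (r = 0.935) and Vstm5 (r = 0.913) for Krt7, Tmprss2 (r = 0.951) and Spint1 (r = 0.948) for Krt8, Tmc4 (r = 0.841) and Klf5 (r = 0.833) for Krt18, and Unc5a (r = 0.95) and Isoc1 (r = 0.938) for Krt19. For the claudins they were Cyp4f14 (r = 0.858) and Trim5 (r = 0.828) for Cldn3, Slc14a1 (r = 0.89) and Ms4a6d (r = 0.886) for Cldn4, and Hcar1 (r = 0.907) and Rgs9 (r = 0.906) for Cldn7. Ehf, an ETS factor like Elf3, averaged 395.7 in stomach and 381.2 in intestine, and Slc14a1, a urea transporter, averaged 1883.0 in bladder and 363.3 in kidney, the tissues in which Cldn4 was high.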

How the data were processed

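Per the submitters' processing notes, reads were handled with Trimmomatic 0.39, STAR 2.7.10a, Picard 3.0.0, featureCounts 2.0.4 and DESeq2 1.36.0, on mm39. The authors deposited 1 table of signal, that is, whole numbers per gene and library already scaled between libraries; the scaling, strand setting and handling of multiply matching reads are not given in the sources used here. The signal of 1 read was inferred per library from the frequencies of whole values, searched between 0.3 and 12, and reads were rebuilt from it. Library totals and floors are in the account above.

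Genes that reached a signal of 10 in 3 or more libraries were tested with limma 3.58.1 (R 4.3.3; trend) on log2(signal + 1), 7 tissue groups in 1 fit, by an F test, by each tissue minus the unweighted mean of the other 6 and by tissue pairs, with Benjamini-Hochberg adjustment over all genes and a threshold of 0.05. Fold changes on this scale can understate changes of low genes. A 0 in the aorta libraries or the third heart library lies far under the 3-read floor, so decreases there can be overstated. With genes at 0 in a whole tissue set to the floor, the members' median moved from -5.57 to -3.39 in aorta. In heart it moved from -4.75 to -3.83. The table turned out to be scaled, so count models were run on rebuilt reads only as alternatives (edgeR 4.0.16, DESeq2 1.42.0). Other alternatives were a pseudocount of 10, no filter, median-of-ratios scaling, array weights, a replicate block, no aorta libraries and each library left out. Scripts were tested on simulated data. Transcript lengths are from GENCODE M21 (GRCm38) principal transcripts, so the per-length level of Krt7 rests on a long model.

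The members and lists were chosen with earlier results of these data known. All members are named. For other lists, the 2 genes of highest mean signal and up to 2 past the threshold with the largest fold change in a tissue could be named, and, per member, the 2 named genes of highest r; further genes (Sftpc, Muc6, Zeb1, Klf5 among them) were named to show values beside the members after these had been seen.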

Additional observations from a re-analysis of the deposited data

How the results depend on the processing

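In the F test 10 of 10 members passed under every alternative run. The counts that follow stand without the shares of all genes called under the same alternatives, and show only how the members' calls moved. Median-of-ratios scaling changed no count of members called in a tissue. edgeR on rebuilt reads called 4 members in aorta and 4 in heart, and array weights 5 in aorta, 2 in lung. Lung had 3 members called with a pseudocount of 10, 2 with DESeq2, 3 without the aorta libraries, and 4 without these and the third heart library, an alternative chosen after seeing the data. Kidney had 6 higher with edgeR and 6 higher with DESeq2, against 4 higher in limma. It had 2 without the aorta libraries and 2 without these and the third heart library, in each case Cldn4 higher and Krt19 lower. The cause was not tested. With each library left out in turn, the count was 10 to 10 across tissues, 8 to 8 in aorta, 9 to 9 in heart, 0 to 2 in lung, 1 to 5 in kidney, 1 to 5 in bladder, 6 to 8 in stomach and 7 to 9 in intestine. Over single members, 2316 alternative values kept their call, 59 gained one and 85 lost one, and none changed sign after being called.

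The replicate number as a block gave 2 members called in kidney and 7 in intestine and left the counts of the other tissues as they were. The numbers did not pair the libraries: deviations from tissue means correlated with a median of -0.01 between same-numbered libraries and 0.01 between others, and 5 of 22 libraries correlated best with their own number. Depth limits the aorta libraries and the third heart library most.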
